A study of Homo sapiens with 4 samples.

Results

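Aldehyde dehydrogenases oxidise aldehydes to carboxylic acids, and 8 of their genes were followed through RNA sequencing of HT29 cells. HT29 is an established line from a human colon adenocarcinoma. The genes were ALDH1A1, ALDH1A3, ALDH1B1, ALDH2, ALDH3A1, ALDH3A2, ALDH3B1 and ALDH7A1. They were found by gene symbol in the authors' tables of transcript levels, where each symbol had 1 gene identifier, and together they held 78 transcripts, none with a failed status. The tables held 53617 genes in all.

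Each of the 4 groups was 1 library of HT29 cells at passages 12 to 13. Cells at 90% confluency in McCoy medium with 5% serum received a miR-23b precursor, the control of that precursor, an antimir against miR-23b, or the control of that antimir. All 4 groups carried the same transfection reagent, a cationic lipid, and an oligonucleotide at 50 nM (printed as "50nm" in the labels), had their medium changed after 24 h and gave Trizol RNA after 48 h. Precursors are synthetic RNAs given to raise a microRNA, and antimirs are given to block it. With 1 library per group there was no replicate, so no difference below has an error or a test, and an effect of the treatment cannot be told apart from other differences between 2 cultures.

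The family works by taking electrons from an aldehyde onto NAD or NADP. ALDH1A enzymes turn retinaldehyde into retinoic acid, a ligand of nuclear receptors in epithelial differentiation, and other members clear acetaldehyde, the aldehydes of lipid peroxidation or the semialdehydes of amino acid breakdown. High aldehyde dehydrogenase activity is widely used to mark stem-like cells in normal and cancerous colon, and ALDH1A1 can inactivate oxazaphosphorine drugs, which ties the family to the study's theme of self-renewal and chemoresistance.

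The microRNA that the oligonucleotides were aimed at, whose own level was not analysed here, is shown with its seed, bases 2 to 8, in capitals, because the seed is the part that pairs with target mRNAs. The mature sequence comes from RefSeq on GRCh38.p14, where it lies on the plus strand at chr9:95085265-95085287.
hsa-miR-23b-3p: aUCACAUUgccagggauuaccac

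A match to this seed, the 7-mer AATGTGA, was looked for on the sense strand of the longest annotated 3' UTR of each gene in GENCODE release 29. It was present in 3 of the 8 genes, ALDH1A1, ALDH2 and ALDH3A2, and absent from the other 5 UTRs. The longest UTR need not be that of the expressed forms. That of ALDH3B1 came from ENST00000342456, listed at 0 in all libraries. That of ALDH1A3 came from ENST00000329841, at 0.175 FPKM or less. The ALDH3A2 UTR came from ENST00000631291, which is not listed in the authors' tables. Over all 19133 protein-coding genes with a 3' UTR the share with a match was 18.4%. Among the 10894 of them with a mean of at least 1 FPKM in both comparisons it was 20.7%. These shares are not adjusted for UTR length, and a longer UTR has more places for a match. The median lengths were 1104 and 1350 bases, with ALDH2 (7954) and ALDH3A2 (2194) above both and ALDH1A1 (546) below. A stretch around each match is shown so that its neighbours can be read, with the 7-mer in capitals and the strand that of the mRNA. None of the 4 matches was followed by an A.
ALDH1A1, base 193 of 546 in the 3' UTR, chromosome 9: tttgccttctgaAATGTGAcccccaag
ALDH2, base 4018 of 7954, chromosome 12: atggacagacaaAATGTGAcatatcca
ALDH2, base 7640 of 7954, chromosome 12: acggaagttattAATGTGAccaaggaa
ALDH3A2, base 1811 of 2194, chromosome 17: actcaatgagagAATGTGAtttacttt

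Levels are given as FPKM, fragments per kilobase of transcript scaled to library size, summed over the transcripts of a gene. This unit is scaled to transcript length, so genes can be set beside each other within a library. The precursor library and its control form 1 table, and the antimir library and its control form another that was normalised separately, so no treatment difference is drawn between the tables. Where levels or shares of all 4 libraries are set together below, they describe these libraries as deposited. Levels hold any difference in scaling between the tables, while a share within a library does not change with its scaling. The summed FPKM of all genes was 2800520 with the precursor and 2848010 with its control, against 1463120 with the antimir and 1545580 with its control. FPKM carries no read counts, and the depth of each library is unknown.

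The order of the 8 genes was the same in every library. ALDH1A1 was highest, followed by ALDH7A1, ALDH2, ALDH3A2, ALDH3B1, ALDH1B1, ALDH3A1 and ALDH1A3. ALDH1A1 alone held 71.5% of the FPKM of the 8 genes with the precursor and 71.5% with its control, and 71.5% with the antimir and 70.6% with its control. Among protein-coding genes it ranked 191 and 195 in the precursor library and its control, and 162 and 163 in the antimir library and its control. Across the 4 libraries the ranges of ALDH7A1 (70.2 to 91.3 FPKM) and ALDH2 (58.1 to 81.7 FPKM) overlapped, while no other neighbours in the order did. ALDH3A2 came close to ALDH2 without overlap, with a highest level of 57.5 FPKM.

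**Figure D1:**
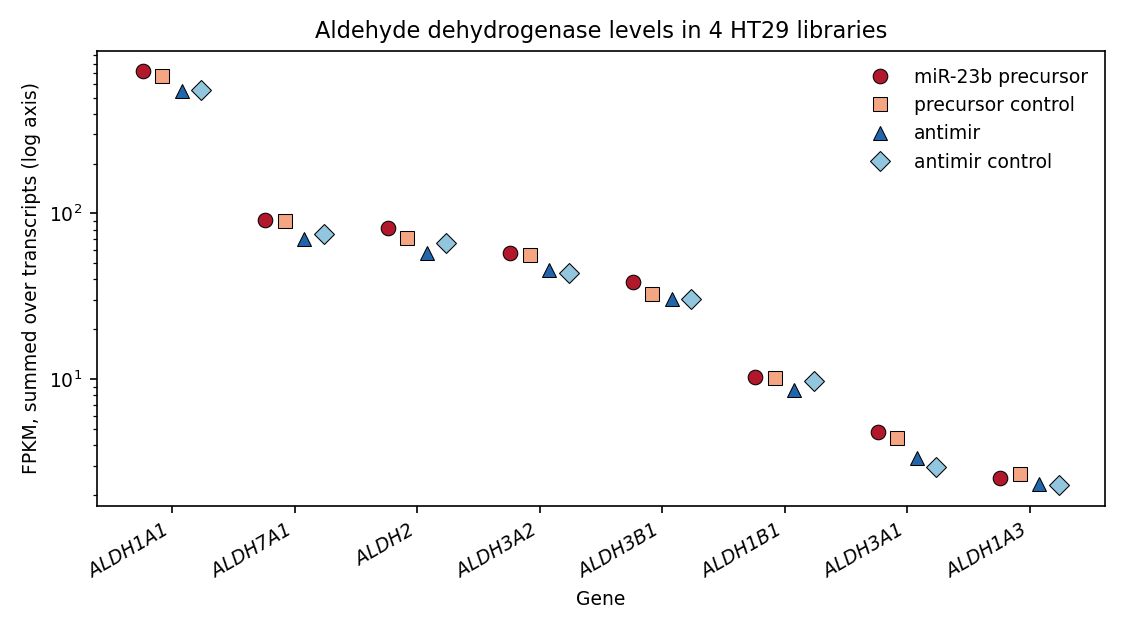
Level of each gene in FPKM summed over its transcripts (log axis) in the precursor library, its control, the antimir library and its control, 1 point per library with no error bar. ALDH1A1 lies between 551 and 719 FPKM, ALDH7A1, ALDH2, ALDH3A2 and ALDH3B1 lie between 30.5 and 91.3, and the other genes lie at or below 10.3.

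No gene of the 8 was 1.5-fold higher or lower than its control in either comparison. In the precursor comparison this was 0 of 8, where 6.68% of all 16982 genes past the filter on low values were that far apart, 3.36% higher and 3.32% lower. For the 11346 protein-coding genes among them the share was 1.15%, with 0.529% higher and 0.617% lower. In the antimir comparison it was again 0 of 8, where 7.97% of all 14190 genes were that far apart, 5.07% higher and 2.9% lower, and 2.63% of 11060 protein-coding genes, with 1.75% higher and 0.886% lower. At such shares a count of 0 among 8 genes is near the background. All 8 genes passed the filter, a mean of at least 1 FPKM over the 2 libraries, in both comparisons. Each difference is log2(FPKM + 1) with the treatment minus that with its control, centred on the median of all genes past the filter, and it comes out too small for weakly expressed genes. Past 1.5-fold means a difference of at least 0.585 in size on this scale.

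The differences of the 8 genes lay between -0.085 and 0.21 in the precursor comparison, with a median of 0.039, where the median of all genes was 0 and the central 90% of protein-coding genes spanned -0.30 to 0.29. In the antimir comparison they lay between -0.15 and 0.17, with a median of 0.031 against a central 90% of -0.33 to 0.37. In each comparison 5 genes lay above 0 and 3 below, but without centring the split was 7 and 1 in the precursor comparison and 4 and 4 in the antimir comparison.

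**Figure D2:**
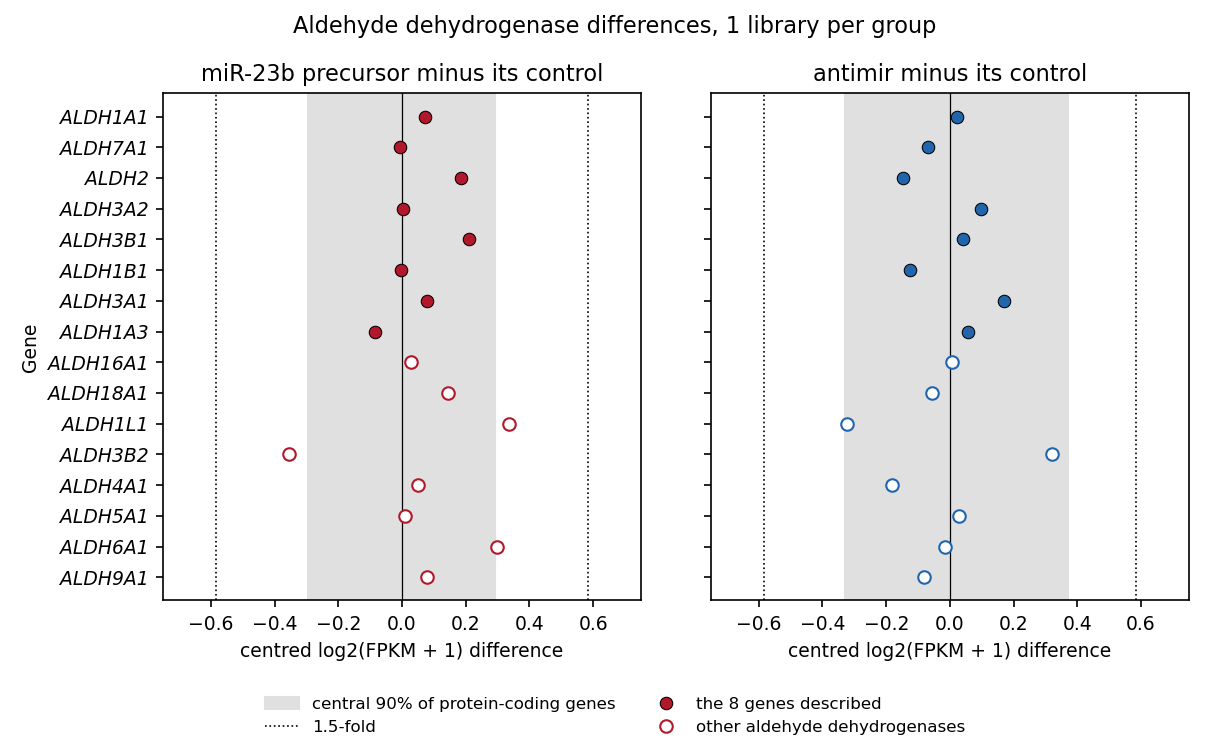
Centred log2(FPKM + 1) difference of each gene (horizontal axis) in the precursor (left, red) and antimir (right, blue) comparisons, with filled points for the 8 genes and open points for 8 other family members past the filter; grey marks the central 90% of protein-coding genes and dotted lines 1.5-fold. No point reaches a dotted line, and the filled points span -0.085 to 0.21 on the left and -0.15 to 0.17 on the right.

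Of the retinaldehyde-oxidising members, ALDH1A1 (ENSG00000165092.7), a cytosolic enzyme and the best known of the stem cell markers, was at 719 FPKM with the precursor and 673 with its control. The centred difference was 0.073. It was at 551 FPKM with the antimir and 557 with its control, a difference of 0.022 that turned to -0.016 without centring. The gene was thus nearly level in both comparisons. The locus given in the authors' tables on hg19 is chromosome 9, 75515578 to 75695358, which they also give for the pseudogene CYP1D1P. ALDH1A3 (ENSG00000184254.10; chromosome 15, 101389766 to 101626271), another retinaldehyde dehydrogenase, was the lowest of the 8. The tables give its locus to 6 other genes as well, LRRK1 among them. Of the 8 members, only ALDH1B1 and ALDH3A1 had a locus given to no other gene. Whether reads of overlapping genes enter the levels of the others was not tested, and the low level of ALDH1A3 is uncertain. ALDH1A3 was at 2.53 FPKM with the precursor and 2.68 with its control (-0.085), and at 2.33 FPKM with the antimir and 2.29 with its control (0.056). Its sum was spread over many weak forms, and none of its 9 transcripts reached a mean of 1 FPKM in either comparison. Transcripts annotated as coding with complete ends held 0.497% of the ALDH1A3 sum with the precursor and 2.66% with its control. The share was 3.31% with the antimir and 7.64% with its control. Stronger members were also affected. The share was 2.17% for ALDH7A1 and 3.37% for ALDH2 with the precursor, and 14.9% and 19.0% with the antimir. For ALDH3B1 it was 0% in all libraries, and transcripts not in GENCODE 29 held 94.0% with the precursor. For ALDH1A1, ALDH1B1, ALDH3A1 and ALDH3A2 it was higher, with a lowest value of 29.5% for ALDH3A2 with the precursor. Transcripts not in GENCODE 29 have no type there, so whether they are coding is unknown. They held 56.4% of the ALDH2 sum with the antimir and 62.2% with its control. For ALDH7A1 they held 21.6% with the precursor, where listed transcripts of types other than protein-coding held 44.4%. The shares of complete coding forms thus count only transcripts that this release lists as such. A gene sum cannot be read as the level of complete coding mRNA.

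Of the mitochondrial members, ALDH1B1 (ENSG00000137124.5; chromosome 9, 38392661 to 38398658), an acetaldehyde and retinaldehyde oxidising enzyme reported in colon progenitor cells, was at 10.3 FPKM with the precursor and 10.1 with its control. It was at 8.66 FPKM with the antimir and 9.81 with its control, with a difference of -0.12 that turned to 0.11 when only the most abundant transcript of each gene was used. ALDH2 (ENSG00000111275.6; chromosome 12, 112123857 to 112247782, a locus the tables also give for ACAD10), the main acetaldehyde-clearing enzyme, was at 81.7 FPKM with the precursor and 70.6 with its control. Its difference was 0.18. It was at 58.1 FPKM with the antimir and 66.2 with its control, a difference of -0.15. ALDH2 was the only 1 of the 8 with a difference above 0.1 in one comparison and below -0.1 in the other, and both values lay inside the central 90% of protein-coding genes. With only the most abundant transcript of each gene in each comparison, ALDH2 differed by 0.084 in the precursor comparison, on ENST00000549106.1. In the antimir comparison ALDH2 differed by -0.21, on another form, ENST00000552234.1. Centred on all transcripts, ENST00000549106.1 differed by 0.10 in the precursor and 0.18 in the antimir comparison.

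ALDH7A1 (ENSG00000164904.9; chromosome 5, 125877533 to 125931110), or antiquitin, acts in lysine breakdown. It was at 91.3 FPKM with the precursor and 90.3 with its control, and at 70.2 FPKM with the antimir and 75.6 with its control (-0.068). Reads could be shared with processed copies, of which ALDH7A1P1 was at 2.19 FPKM with the precursor and 1.85 with its control, and at 0.900 FPKM with the antimir and 0.861 with its control. The other 3 copies in the tables were listed at 0 throughout.

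The ALDH3 members oxidise longer and lipid-derived aldehydes. ALDH3A2 (ENSG00000072210.11; chromosome 17, 19551459 to 19580909), the fatty aldehyde dehydrogenase that is mutated in Sjögren-Larsson syndrome, was at 57.5 FPKM with the precursor and 56.4 with its control. It was at 45.8 FPKM with the antimir and 43.9 with its control (0.099). ALDH3B1 (ENSG00000006534.11; chromosome 11, 67776048 to 67797928, a locus the tables also give for RP5-901A4.1) acts on aldehydes of lipid peroxidation. It was at 38.8 FPKM with the precursor and 32.9 with its control. That difference, 0.21, was the highest of the 8. It was at 30.6 FPKM with the antimir and 30.5 with its control (0.040). ALDH3A1 (ENSG00000108602.11; chromosome 17, 19641297 to 19651746), known as an abundant protein of the cornea, was at 4.82 FPKM with the precursor and 4.43 with its control (0.079). It was at 3.34 FPKM with the antimir and 2.96 with its control, and that difference, 0.17, was the highest of the 8 in the antimir comparison. Both ALDH3A1 values turned when only transcripts tested by the authors were summed, to -0.40 in the precursor comparison and -0.047 in the antimir comparison.

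Single transcripts varied more than gene sums. Of the 78 transcripts, 37 passed the filter in the precursor comparison, and 2 of these were at least 1.5-fold higher and 0 lower (5.41%), where 11.5% of 53771 transcripts were past 1.5-fold, 5.52% higher and 5.97% lower. In the antimir comparison 32 passed, with 3 higher and 3 lower (18.8%), where 20.6% of 40627 transcripts were past 1.5-fold, 10.4% higher and 10.2% lower. Transcript differences were centred on the median of all transcripts past the filter. As for genes, 1.5-fold was counted on the log2(FPKM + 1) scale, on which differences of weak forms come out too small.

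Both transcripts past 1.5-fold in the precursor library belonged to ALDH3B1. ENST00000526609.1, its most abundant form, was at 17.6 FPKM with the precursor and 11.2 with its control (0.60). ENST00000531459.1 was at 7.03 FPKM with the precursor and 4.28 with its control (0.59). The other 6 ALDH3B1 transcripts past the filter lay below 0, so the gene sum differed less than its leading forms. In the antimir table ENST00000526609.1 was at 13.3 FPKM with the antimir and 12.6 with its control, and ENST00000531459.1 at 6.92 FPKM with the antimir and 9.56 with its control (-0.38). Neither identifier is in GENCODE 29, where only 2 of the 13 ALDH3B1 transcripts of the tables were found. A pair of weaker ALDH3B1 forms were higher in the antimir table. ENST00000316367.6 was at 2.40 FPKM with the antimir and 0.592 with its control (1.13). ENST00000433100.1, marked LOWDATA and not tested by the authors, was at 1.60 FPKM with the antimir and 0.399 with its control (0.93).

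The remaining 4 antimir transcripts past 1.5-fold came from 4 genes. ALDH1A1 ENST00000428593.1, marked LOWDATA and not tested by the authors, was at 26.1 FPKM with the antimir and 55.1 with its control (-1.02). ALDH2 ENST00000551906.1 was at 8.24 FPKM with the antimir and 14.6 with its control (-0.73), and ALDH7A1 ENST00000509270.1 at 6.24 FPKM with the antimir and 10.5 with its control (-0.64). ALDH3A1 ENST00000494157.1 was at 1.63 FPKM with the antimir and 0.743 with its control (0.62). Each of these is a part of its gene's sum, and the full sums differed by no more than 0.17 in size.

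The authors' deposited tables hold a call for each tested transcript, made from 1 library against 1 other. In the authors' deposited precursor table, 5 of 50 tested transcripts of the 8 genes were called higher and 3 lower (16%), where 13.6% of 78175 tested transcripts were called, 6.91% higher and 6.66% lower. Those called higher in the authors' deposited table were the 2 ALDH3B1 forms above (q = 0.000635 and q = 0.000694), ALDH2 ENST00000551906.1 at 21.3 FPKM with the precursor and 14.9 with its control (q = 0.0255), ALDH2 ENST00000416293.3 at 2.75 FPKM with the precursor and 1.52 with its control (q = 0.0173), and ALDH3A1 ENST00000395555.3 at 0.474 FPKM with the precursor and listed at 0 with its control (q = 0.000614).

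Those called lower in the authors' deposited table were weak forms. ALDH1A1 ENST00000482210.1 was listed at 0 with the precursor, against 0.517 FPKM with its control (q = 0.0232). ALDH3A2 ENST00000467473.1 was listed at 0 with the precursor, against 1.37 FPKM with its control (q = 0.00346), and ALDH3A1 ENST00000457844.1 was at 0.0688 FPKM with the precursor and 0.556 with its control (q = 0.0301). In the authors' deposited antimir table, 1 of 44 tested transcripts was called, and it was lower (2.27%), where 0.414% of 62029 were called, 0.243% higher and 0.171% lower. This was ALDH3A1 ENST00000444455.1, listed at 0 with the antimir and at 1.01 FPKM with its control (q = 0.00364 in the authors' deposited table). No transcript of ALDH1A3, ALDH1B1 or ALDH7A1 was called in either of the authors' deposited tables.

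The transcripts of these genes that carry the seed match were read one by one. ALDH1A1 ENST00000297785.3, the full-length coding form with the match, was at 369 FPKM with the precursor and 355 with its control (0.042). It was at 450 FPKM with the antimir and 407 with its control (0.18). ALDH2 ENST00000261733.2, the form with the long UTR and both matches, was listed at 0 both with the precursor and with its control, and was at 9.83 FPKM with the antimir and 10.7 with its control (-0.083). Of the listed ALDH3A2 transcripts, 4 held the stretch printed above. The most abundant, ENST00000395575.1, was at 11.1 FPKM with the precursor and 11.4 with its control (-0.049), and at 18.2 FPKM with the antimir and 15.8 with its control (0.22). ALDH3A2 ENST00000339618.4 was at 5.86 FPKM with the precursor and 5.94 with its control (-0.028), and at 3.94 FPKM with the antimir and 5.26 with its control (-0.31). ALDH3A2 ENST00000472059.1 was at 2.64 FPKM with the precursor and 2.25 with its control (0.15), and at 2.67 FPKM with the antimir and 1.68 with its control (0.48). The last of the 4, ENST00000176643.6, was listed at 0 in all libraries. The ALDH3A2 forms with the match thus lay on both sides of 0. None of these forms was past 1.5-fold in a comparison where it had a value.

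The make-up of a gene by transcript differed more between the 2 control libraries than within either pair for 5 of the 8 genes. The measure was the share of a gene's FPKM that would have to move from one transcript to another to make 2 libraries alike. For ALDH1A1 it was 1.66% between the precursor library and its control and 8.87% between the antimir library and its control, but 20.9% between the 2 control libraries. ALDH1A1 ENST00000297785.3 held 51.3% of the gene with the precursor and 52.8% with its control, and 81.8% with the antimir and 73.1% with its control. ENST00000419959.1, a coding form with incomplete ends, was at 56.4 FPKM with the precursor and 49.4 with its control, and was listed at 0 in both libraries of the antimir table.

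ALDH7A1 and ALDH2 showed the same split by table. For ALDH7A1 the measure was 4.19% in the precursor pair and 6.91% in the antimir pair, against 34.7% between the controls. ALDH7A1 ENST00000413020.1 was at 0.0351 FPKM with the precursor and listed at 0 with its control, but was at 8.35 FPKM with the antimir and 8.95 with its control. ENST00000437170.1 was at 17.4 FPKM with the precursor and 17.9 with its control, and at 22.0 FPKM with the antimir and 24.6 with its control. For ALDH2 the measure was 6.38% in the precursor pair, 10.3% in the antimir pair and 27.5% between the controls. ALDH2 ENST00000549106.1, annotated as a substrate of nonsense-mediated decay, was at 28.4 FPKM with the precursor and 26.2 with its control, and at 13.2 FPKM with the antimir and 11.8 with its control.

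**Figure D3:**
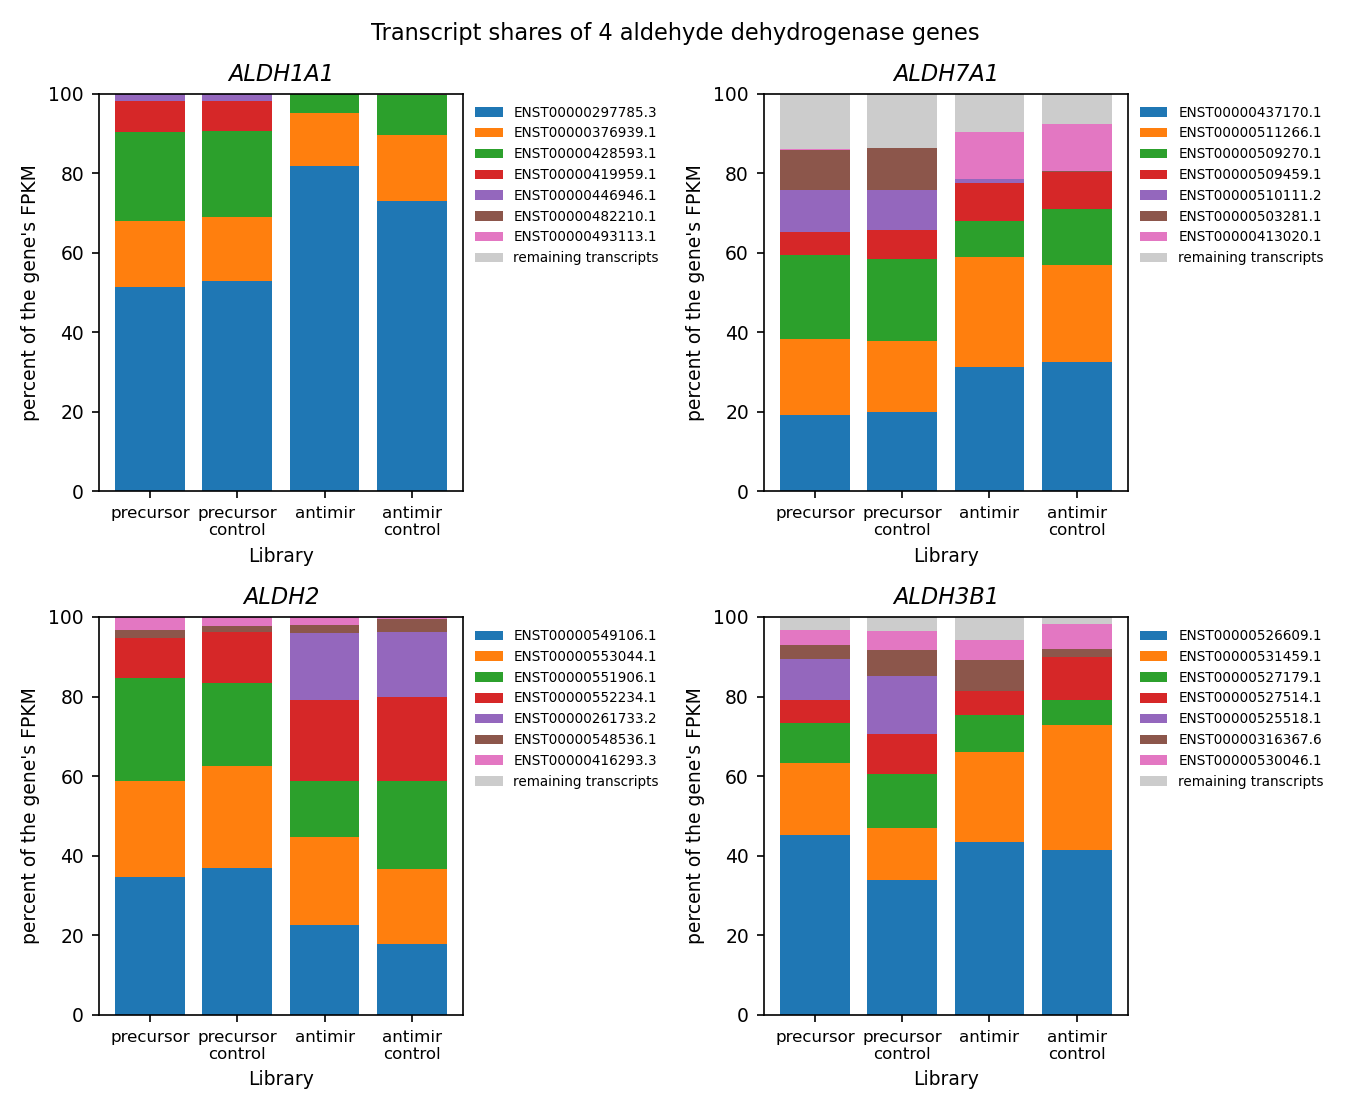
Share of each transcript in the summed FPKM of its gene (vertical axis, percent) in the 4 libraries for ALDH1A1, ALDH7A1, ALDH2 and ALDH3B1, with the 7 most abundant transcripts coloured and the rest in grey. ALDH2 ENST00000261733.2 is seen in the antimir library and its control and is listed at 0 in the precursor library and its control.

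ALDH3A2 had 5.30% and 5.90% within its pairs and 17.2% between the controls, and ALDH3B1 16.6% and 14.9% against 28.5%. Between the antimir and precursor libraries ALDH3B1 differed by 12.6%, less than within either pair, so its split by table was not seen there. In the 5 of 8 genes (62.5%) named so far the controls differed more than either pair, and the same held for 73.5% of 10140 protein-coding genes with more than 1 transcript. The share among the 8 genes was thus near that of all genes. ALDH1B1, with 2 transcripts, differed by 2.50% between the controls and by 10.96% within the antimir pair. The weakly expressed ALDH3A1 and ALDH1A3 differed more within the antimir pair, by 43.6% and 27.9%, than between the controls, by 34.1% and 21.3%. Between the antimir and precursor libraries ALDH3A1 differed by 54.6% and ALDH1A3 by 20.7%. The values there were 30.7% for ALDH1A1, 38.8% for ALDH7A1, 27.2% for ALDH2, 21.7% for ALDH3A2 and 11.4% for ALDH1B1, beside a median of 25.4% over protein-coding genes. Over protein-coding genes the median was 8.57% in the precursor pair, 11.8% in the antimir pair and 24.8% between the controls. Shares do not change with the scaling of a library, so the separate scaling of the tables does not enter this measure. Each table holds 1 kind of oligonucleotide with its control, so the table and the kind of oligonucleotide cannot be told apart in this split.

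**Figure D4:**
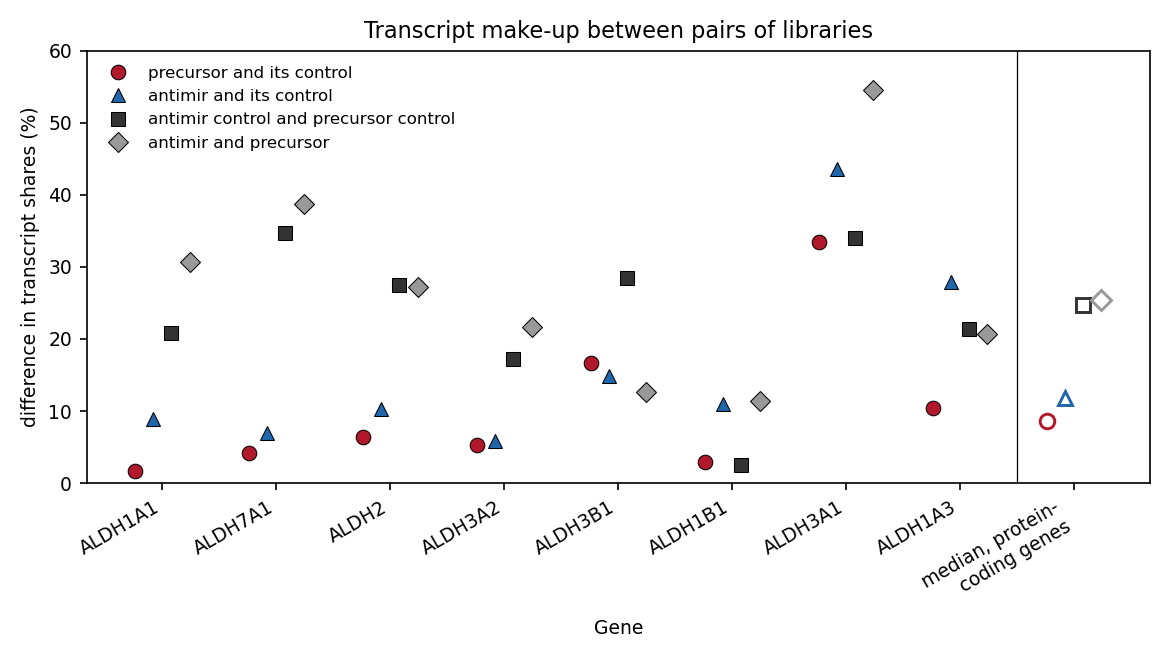
Difference in transcript shares (vertical axis, percent of a gene's FPKM) for the 8 genes between the precursor library and its control, the antimir library and its control, the 2 controls, and the antimir and precursor libraries; open symbols at the right give the median of 10140 protein-coding genes. ALDH7A1 stands at 4.19% and 6.91% within its pairs and at 34.7% between the controls.

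Of 11 further members of the family, 8 passed the filter in each comparison. Of these, 0 were 1.5-fold higher and 0 lower. Over protein-coding genes 1.15% were that far apart in the precursor comparison and 2.63% in the antimir comparison. A count of 0 is near that background for these 8 genes. Their median difference was 0.064 in the precursor comparison, with 7 above 0 and 1 below, and -0.036 in the antimir comparison, with 3 above 0 and 5 below. ALDH1L1, a folate enzyme, was at 10.2 FPKM with the precursor and 7.73 with its control (0.34), and at 3.28 FPKM with the antimir and 4.50 with its control (-0.32). ALDH3B2, a near relative of ALDH3B1 with which it could share reads, was at 1.29 FPKM with the precursor and 1.88 with its control (-0.35), and at 1.22 FPKM with the antimir and 0.825 with its control (0.32). ALDH6A1, which acts in valine breakdown, was at 9.86 FPKM with the precursor and 7.70 with its control (0.30). ALDH4A1, of proline breakdown, was at 17.2 FPKM with the antimir and 20.1 with its control (-0.18). ALDH1A2, the third retinaldehyde dehydrogenase of its subfamily, stayed below 1 FPKM in all 4 libraries.

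Genes on either side of these enzymes were read as lists. Their counts of 0 past 1.5-fold stand beside 1.15% and 2.63% of protein-coding genes in the precursor and antimir comparisons, and are near that background. Of 24 genes of retinoid metabolism and signalling 14 passed the filter, with 0 past 1.5-fold in either comparison. Their median was 0.13 in the precursor comparison, with 10 above 0 and 4 below, and -0.026 in the antimir comparison, with 5 above 0 and 9 below. RDH10, which supplies retinaldehyde from retinol, was at 21.1 FPKM with the precursor and 16.6 with its control (0.31), and at 12.6 FPKM with the antimir and 15.99 with its control (-0.28). STRA6, the retinol uptake receptor, was at 3.76 FPKM with the precursor and 2.96 with its control (0.24), and at 3.81 FPKM with the antimir and 3.10 with its control (0.27).

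Of 11 genes of alcohol oxidation and acetate use 6 passed, again with 0 past 1.5-fold, and with medians of 0.0099 and 0.023 in the precursor and antimir comparisons. ACSS2, which turns acetate into acetyl-CoA, was at 35.1 FPKM with the precursor and 23.6 with its control (0.53), just short of 1.5-fold, and at 18.1 FPKM with the antimir and 20.0 with its control (-0.097). ADH1C, an alcohol dehydrogenase, was at 2.72 FPKM with the precursor and 4.06 with its control (-0.47), and at 1.501 FPKM with the antimir and 2.37 with its control (-0.39). All 10 genes of lipid aldehyde handling and reported regulators of the family passed, with medians of 0.055 and 0.17 and 0 past 1.5-fold. AKR1C3, an aldo-keto reductase, was at 49.4 FPKM with the antimir and 40.6 with its control (0.31). AKR1B10, which reduces aldehydes and retinaldehyde, was at 32.7 FPKM with the precursor and 36.9 with its control (-0.19), and at 26.6 FPKM with the antimir and 22.8 with its control (0.26).

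Markers of the cells were read beside the family. Of 10 simple epithelial markers all passed in the precursor comparison, with 10 above 0 and a median of 0.11. In the antimir comparison 9 passed, with 3 above 0 and 6 below and a median of -0.080. Their summed level was 11956 FPKM with the precursor and 11352 with its control, and 5456 FPKM with the antimir and 5657 with its control. Of 10 markers of blood, fibroblast, endothelium and liver 9 were found and 2 passed, and their summed level was 9.18 FPKM with the precursor and 6.73 with its control, and 7.62 FPKM with the antimir and 6.65 with its control. The 2 that passed were the myeloid markers CD68 and CD14, both above 0 in both comparisons. CD68 was at 5.59 FPKM with the precursor and 4.18 with its control (0.33), and at 5.14 FPKM with the antimir and 4.16 with its control (0.29). CD14 was at 2.76 FPKM with the precursor and 1.74 with its control (0.43), and at 1.804 FPKM with the antimir and 1.78 with its control (0.050). The fibroblast marker COL1A1 stayed between 0.562 and 0.816 FPKM, COL3A1 was listed at 0 throughout, and the other 5 were at 0.0571 FPKM or less. The part of such cells in the differences of the 8 genes was not tested.

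Colon stem cell markers outside the family had 0 past 1.5-fold in both comparisons, where 1.15% (precursor) and 2.63% (antimir) of protein-coding genes were. Their median was 0.17 in the precursor comparison, with all 9 that passed above 0. It was -0.16 in the antimir comparison, with 3 above 0 and 6 below. The simple epithelial markers lay on the same sides of 0, so this shift is not shown to be particular to stem cell markers. Beside them ALDH1A1 differed by 0.073 and 0.022 and ALDH1B1 by -0.0022 and -0.12.

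The protein-coding genes whose profile over the 4 libraries was nearest to that of a member were found by distance on the log2 scale, after each library's median and each gene's mean were removed, among 10970 genes. UGDH was nearest to ALDH1A1 (distance 0.011). UGDH was at 93.3 FPKM with the precursor and 87.9 with its control, and at 71.0 FPKM with the antimir and 72.2 with its control. RTN4R was nearest to ALDH2 (0.012), NDUFV3 to ALDH3B1 (0.016) and API5 to ALDH7A1 (0.011). NMD3 was nearest to ALDH3A2 (0.0091), DGUOK to ALDH1B1 (0.0055), DOLK to ALDH1A3 (0.0095) and FBXO44 to ALDH3A1 (0.0024). The distances rest on 4 libraries from separately normalised tables and are a description of them.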

How the data were processed

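RNA of 4 HT29 cultures was sequenced, 1 per group. Per the submitters' processing notes, bcl2fastq 1.8.3, TopHat2 2.0.11, Cufflinks 2.2.0 and Cuffdiff were used with hg19; their settings are not given in the sources used here. As deposited by the authors, there were 2 tables of 212874 entries with FPKM per transcript, and with their p-value and q-value for 1 library against 1 other. The library with a final N in its name was taken as the control, being the only other one in its table. The authors' fold column runs control over treated and was not used.

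Failed entries (1321 and 1528 in the precursor and antimir tables, none of the 8 genes) and the gene-identifier entries of genes with transcripts were left out. Transcripts were summed per gene identifier. Differences of log2(FPKM + 1) were centred on the median of genes with a mean of at least 1 FPKM (0.022 removed in the precursor and -0.038 in the antimir comparison). Genes 1.5-fold apart were counted without a test. The fold computation was tested on simulated data.

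Locus starts were shifted by 1 base, because 17901 loci then have the length of their gene in GENCODE 29. That release is on another build and served only for types, UTRs and names (46998 genes matched by identifier, and 55 of the 78 transcripts). The members, the lists and the tests were chosen with earlier results of these data known. All 8 members were named, with the 3 most abundant and all called transcripts considered for each, up to 3 list genes with the largest differences per comparison, and the nearest profiles; not all are given. The comparison of transcript make-up and the reading of seed matches by transcript were chosen after values were seen. So were the transcripts given for the antimir comparison past 1.5-fold and the make-up examples. Protein sequences were not used here. Python 3.11.15, pandas 2.3.3 and numpy 2.4.6 were used.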

Additional observations from a re-analysis of the deposited data

How the results depend on the processing

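The count of 0 genes past 1.5-fold held in the precursor comparison under all 8 alternatives: a pseudocount of 0.1, no filter, a mean of at least 5 FPKM (6 genes left), failed entries kept, tested entries only, the most abundant transcript only (7 genes left), whole-locus entries added and no centring. In the antimir comparison it held under 7 of them and became 1 with the most abundant transcript only, where ALDH3A1 stood at 0.62. Of all genes, 4.96% to 8.79% were past 1.5-fold in the precursor comparison under these alternatives. In the antimir comparison the share was 6.10% to 11.4%, highest with the most abundant transcript only. Counts of 0 or 1 among 6 to 8 genes are near these shares. With the most abundant transcript only, ALDH3B1 stood at 0.580 in the precursor comparison, just under the 0.585 of 1.5-fold. This is ENST00000526609.1, given above at 0.60, where the median removed was 0.012 and not 0.029. Of the 14 single differences given by this setting, 8 moved by 0.1 or more, ALDH2 in the precursor comparison (0.084) among them. The sign turned in 2, ALDH1B1 in the antimir comparison (0.11) and ALDH7A1 in the precursor comparison (0.031). With tested entries only, 2 of 16 moved, both of ALDH3A1 (-0.40 and -0.047). No centring and no filter turned the sign of 3 small values each, a mean of at least 5 FPKM and whole-locus entries of 1 each. Without the filter the median removed was 0.0052 in the precursor and -0.010 in the antimir comparison, against 0.022 and -0.038 as reported. Without centring no median was removed. Why values moved under the other settings was not tested. No paired analysis was possible because each group holds 1 library. Depth is unknown, so how far it limits ALDH3A1 and ALDH1A3 cannot be given.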

Other observations

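The whole-locus entries of the 8 genes, left out of the sums, reached at most 0.643 FPKM, in ALDH3B1. The authors' deposited table called that of ALDH3A2, at 0.309 FPKM with the precursor and 0.431 with its control (q = 0.00587 in the authors' deposited table). It was at 0.413 FPKM with the antimir and 0.387 with its control.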
